A study of Arabidopsis thaliana with 27 samples.

Results

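Oral secretions (OS) of the specialist *Pieris brassicae* (Pb OS) and of the generalist *Spodoptera littoralis* (Sl OS) were compared directly with each other in wounded leaves of *Arabidopsis thaliana* Col-0. The comparison took all 8 Pb OS libraries and all 8 Sl OS libraries, 16 of the 27 libraries of the series, and covered 18899 genes. Each OS had 4 libraries at 3 h and 4 at 24 h. The pooled difference was the mean of the Pb OS minus Sl OS differences at both times, so that time did not enter it. The Col-0 plants were 5 weeks old in all groups. In every wounded group 3 leaves per plant were pierced with 4 holes of 1 mm, and 2 µl of liquid was put on each hole. That liquid was water in the wounded control (W, 3 libraries at 3 h and 4 at 24 h), Pb OS or Sl OS. Unwounded leaves were taken once, with the 3 h samples, in 4 libraries. Discs of 1 cm around the wound were collected.

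The replicates were 4 batches of plants, and the replicate number was taken as the batch. The numbers of W at 3 h are in doubt, since the study left out 1 of its libraries and replicate 2 of the 3 that remain carries the batch shift of replicates 3 and 4 in the table. Each sample came from a small group of plants. *S. littoralis* larvae had grown on Arabidopsis, whereas *P. brassicae* larvae had grown on *Brassica oleracea* and moved to Arabidopsis 1 day before OS collection. Species and rearing plant therefore cannot be told apart here. The OS were matched by volume. In leaf discs, fewer cells of a type and less RNA per cell cannot be told apart either.

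A caterpillar that chews a leaf leaves OS on the wound, and the plant meets both the damage and the insect's molecules. Elicitors in OS can strengthen the jasmonate-driven wound response, while effectors can weaken parts of it. Specialists on Brassicaceae such as *P. brassicae* redirect glucosinolate breakdown to less toxic products, and generalists such as *S. littoralis* are held back by these compounds, which is why the plant's answers to both OS are set against each other.

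The OS libraries held 23.35 to 30.72 M reads on genes, with a median of 29.38 M, so 1 read stood for 0.0289 to 0.0384 CPM, the unit of reads scaled to depth. All 5 mesophyll markers were present, with RBCS1A, the Rubisco small subunit, at 1820 to 14600 CPM, whereas of 4 flower markers only AG was in the table, at up to 1.5 CPM. The first principal component of the 16 libraries held 57.2% of the variance and separated the times. The replicate 2 libraries at 3 h stood apart in opposite directions. Over the 1233 genes that both OS raised above W at 3 h (6.52% of all genes, adjusted p under 0.05 and log2 over 1), the Pb OS libraries of replicates 1 to 4 lay 1.72, 1.21, 2.41 and 2.29 log2 units above W. The Sl OS libraries lay 1.76, 2.78, 2.07 and 1.92 above it. Replicate 2 was thus the weakest response to Pb OS and the strongest to Sl OS, and its Sl OS library also had the lowest mesophyll marker sum at 3 h (3400 CPM, against 7670 to 13300 in Pb OS). Results that rest on this pair are given below also without it, an alternative added after the data were seen.

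No gene passed the test of the pooled difference. With limma and Benjamini-Hochberg adjustment over 18899 genes, 0 genes (0%) had an adjusted p under 0.05, and the smallest adjusted p was 0.074. At an unadjusted p under 0.05 there were 899 genes (4.76%), 498 higher with Pb OS (2.64%) and 401 higher with Sl OS (2.12%). Voom on recovered reads also called 0 genes, with 806 at an unadjusted p under 0.05. The difference was not called at either time alone: 783 genes (4.14%) stood under the unadjusted threshold at 3 h and 691 (3.66%) at 24 h, with smallest adjusted p of 0.128 and 0.0585 in limma. Voom called 0 at both times, with 691 and 660 genes at the unadjusted threshold. The test of whether the difference itself changed between the times called 0 genes, with 582 (3.08%) at the unadjusted threshold in limma, 554 in voom and a smallest adjusted p of 1.

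The size of what could differ was bounded. The median gene differed by 0.108 log2 units in size, and the 5th to 95th percentiles ran from -0.43 to 0.40. For 15356 genes (81.3%) the 95% interval of the pooled difference lay wholly within a log2 difference of 1, which is a 2-fold change either way. This share was 87.1% of the 17233 genes with a mean of at least 1 CPM and 92.9% of the 11295 genes with at least 10 CPM. Estimates beyond 1 were seen in 206 genes, of which 87 had at least 1 CPM and 15 at least 10 CPM. In 1 gene, LECRK52, the whole interval lay beyond 1. The intervals were not adjusted for the number of genes, and LECRK52 is the gene with the smallest p.

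The 24 genes with the smallest p are described as values, since none was called. Sl OS was higher in 13 and Pb OS in 11. In 10 of the 24 all 8 same-numbered pairs differed the same way, against 98 (0.519%) and 122 (0.646%) of all genes with 8 of 8 pairs higher in Pb OS and in Sl OS. Since small p and steady pairs go together, these counts are not independent of the choice of the 24. In 3 of them the tabulated levels of both OS did not overlap at 3 h or at 24 h. Over the whole table this was seen in 5 genes (0.0265%) toward Pb OS and 4 (0.0212%) toward Sl OS. The tabulated levels carry the batch shift, which need not cancel between libraries of different batches. Means of 7 of the 24 were under 1 CPM.

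**Figure D1:**
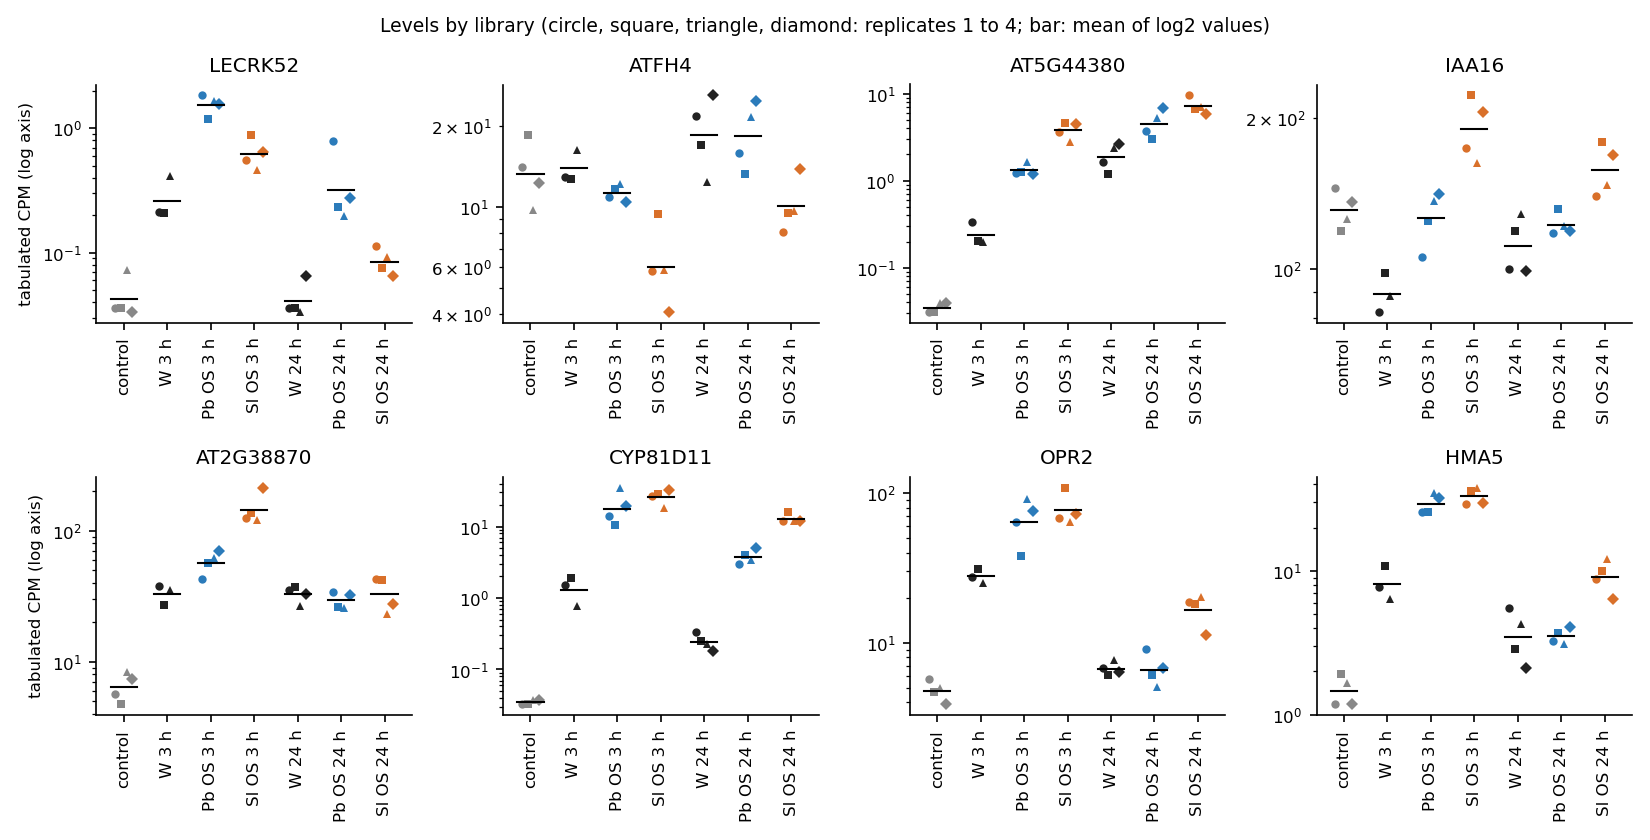
Levels of 8 of the 24 genes in each library, in tabulated CPM on log axes, for the unwounded control, W, Pb OS and Sl OS at 3 h and 24 h. Points are libraries, shaped by replicate number, and bars are means of the log2 values. LECRK52 and IAA16 show no overlap between both OS at either time, whereas CYP81D11, OPR2 and HMA5 separate at 24 h.

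LECRK52 (AT1G70130), an L-type lectin receptor kinase by annotation, had the smallest p. Kinases of this family span the membrane and carry a lectin-like outer domain. Its level in replicates 1 to 4 was 1.84, 1.19, 1.67 and 1.58 CPM with Pb OS at 3 h and 0.553, 0.876, 0.464 and 0.65 CPM with Sl OS. At 24 h it was 0.797, 0.233, 0.199 and 0.274 CPM with Pb OS, but only 0.114, 0.075, 0.093 and 0.0651 CPM with Sl OS. Every Pb OS library thus stood above every Sl OS library of its time. W gave 0.207 to 0.412 CPM at 3 h, and in W at 24 h no library had more than 1 read. The pooled difference was 1.62 ± 0.265 log2 units (SE, 95% interval 1.06 to 2.17), a factor of 3.06, with an adjusted p of 0.074 in limma. The gene rests on few reads, at most 56 in a library and 1 to 2 in the Sl OS libraries at 24 h.

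AT5G44380, a FAD-binding oxidoreductase of the berberine bridge enzyme family, went the other way. At 3 h it measured 1.22, 1.26, 1.62 and 1.19 CPM with Pb OS and 3.66, 4.54, 2.76 and 4.46 CPM with Sl OS, without overlap. At 24 h the levels were 3.7, 3.01, 5.29 and 6.89 CPM against 9.53, 6.59, 6.98 and 5.88 CPM, and here the ranges overlapped. W stood at 0.199 to 0.335 CPM at 3 h, so both OS lay above it. The pooled difference was -1.10 ± 0.18 (SE), with 7 of 8 pairs higher in Sl OS and an adjusted p of 0.074.

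IAA16, an Aux/IAA repressor of auxin signalling, was an abundant gene with a small difference in 8 of 8 pairs. It measured 106, 125, 137 and 141 CPM with Pb OS at 3 h and 174, 222, 163 and 206 CPM with Sl OS. At 24 h the levels were 118, 132, 122 and 119 CPM against 140, 179, 147 and 169 CPM. No library overlapped at either time, although the pooled difference was only -0.47 ± 0.0829 (SE), with an adjusted p of 0.104. W gave 82.2 to 98.3 CPM at 3 h.

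A further group parted mainly at 24 h. CYP81D11 is a cytochrome P450 known to answer to reactive oxylipins and foreign chemicals. Its levels at 24 h were 3, 4.01, 3.35 and 5.03 CPM with Pb OS and 11.8, 15.9, 11.9 and 11.9 CPM with Sl OS, while W stayed at 0.179 to 0.33 CPM. The 24 h ranges did not overlap, and at 3 h they did, at 10.5 to 35.1 CPM with Pb OS and 18 to 32.3 CPM with Sl OS. The differences were -0.53 at 3 h and -1.76 at 24 h, and the pooled one was -1.15 ± 0.229 (SE). OPR2, an oxophytodienoate reductase outside the main route of jasmonate synthesis, gave 9.08, 6.08, 5.07 and 6.75 CPM against 18.8, 18.1, 20.1 and 11.2 CPM at 24 h. There Pb OS overlapped W (6.11 to 7.68 CPM), and at 3 h both OS overlapped (37.9 to 90.9 CPM and 64.4 to 109 CPM). HMA5, a copper-transporting ATPase, followed the same course, with 3.24, 3.67, 3.09 and 4.06 CPM against 8.73, 10, 12.2 and 6.37 CPM at 24 h and W at 2.11 to 5.48 CPM. The unadjusted p of the change of the difference between the times was 0.0151 for CYP81D11, 0.00598 for OPR2 and 0.00247 for HMA5 in limma, none of which passed adjustment.

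Reads of PHT1-1, a phosphate transporter with a near-identical neighbour (PHT1-2) whose reads may be partly shared, appeared only in OS libraries at 24 h. Replicates 1 to 4 held 6, 0, 4 and 16 reads with Pb OS and 57, 40, 40 and 31 reads with Sl OS, and the other 19 libraries held 0. The 24 h difference was -3.08 log2 units on the tabulated scale, which adds a prior count. UPI, a serine protease inhibitor that was chosen after its values were seen, had a similar course, with 4.62, 2.9, 5.21 and 5.39 CPM against 7.78, 8.51, 8.36 and 7.35 CPM at 24 h and W at 0.693 to 1.39 CPM. GRP3S, a glycine-rich protein, measured 38.8, 39.6, 85.7 and 84.6 CPM against 245, 295, 251 and 176 CPM at that time. All 3 genes were thus higher in every Sl OS library than in every Pb OS library at 24 h.

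Another group parted at 3 h. AT2G38870, a protease inhibitor of the potato inhibitor I type, measured 42.6, 57.1, 61.5 and 70.4 CPM with Pb OS and 125, 136, 120 and 214 CPM with Sl OS, above W (27 to 37.8 CPM) in both. Its 3 h difference was -1.34 and its 24 h difference -0.16. GRP5, a glycine-rich protein, gave 8.8, 8.05, 8.68 and 6.24 CPM against 30.4, 23.9, 14.6 and 26 CPM, with W at 12.3 to 19.4 CPM. MYB94, an activator of cuticular wax synthesis, gave 9.73, 8.79, 7.95 and 7.46 CPM against 13.5, 12.8, 12.5 and 12.8 CPM. At 3 h the Pb OS libraries lay below W for GRP5 and at or below it for MYB94 (W at 9.55 to 11.6 CPM), where all Sl OS libraries were above W. The summed level of 5 epidermis and guard cell markers at 3 h was 186 to 305 CPM with Pb OS and 299 to 426 CPM with Sl OS, with slight overlap. At 24 h it was 211 to 363 and 241 to 325 CPM. By 3 h means, FDH (148 against 225 CPM), ATML1 and KAT1 were higher with Sl OS. MYB60 (4.89 against 4.26 CPM) and FAMA (14 against 13.2 CPM) were higher with Pb OS. None of these markers was at 0, and their part in the MYB94 and GRP5 values was not tested.

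On the Pb OS side, ATFH4, a formin that nucleates actin filaments, measured 10.9, 11.7, 12.2 and 10.4 CPM with Pb OS and 5.77, 9.4, 5.82 and 4.08 CPM with Sl OS at 3 h. W stood at 12.7 to 16.3 CPM, above both OS. AT1G56540, a TIR-NBS-LRR immune receptor by annotation, showed the same order at 24 h, with 7.35, 10, 7.42 and 7.53 CPM against 2.58, 4.82, 5.13 and 6.18 CPM and W at 6.34 to 14 CPM. AT4G39320, a microtubule-associated protein by annotation, had 1.01, 0.745, 0.951 and 1.63 CPM against 0.127, 0.475, 0.511 and 0.542 CPM at 24 h, below W (1.97 to 3.53 CPM) with both. Its tabulated levels did not overlap at 3 h either, but its reads met, at 6 to 15 with Pb OS and 3 to 6 with Sl OS. The pooled differences were 0.89 ± 0.191, 0.70 ± 0.155 and 1.24 ± 0.289 (SE) in that order. CDKB1-1, a B-type cyclin-dependent kinase of dividing cells, stood at 4 to 12 reads with Pb OS and 1 to 4 reads with Sl OS at 3 h, and overlapped at 24 h.

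**Figure D2:**
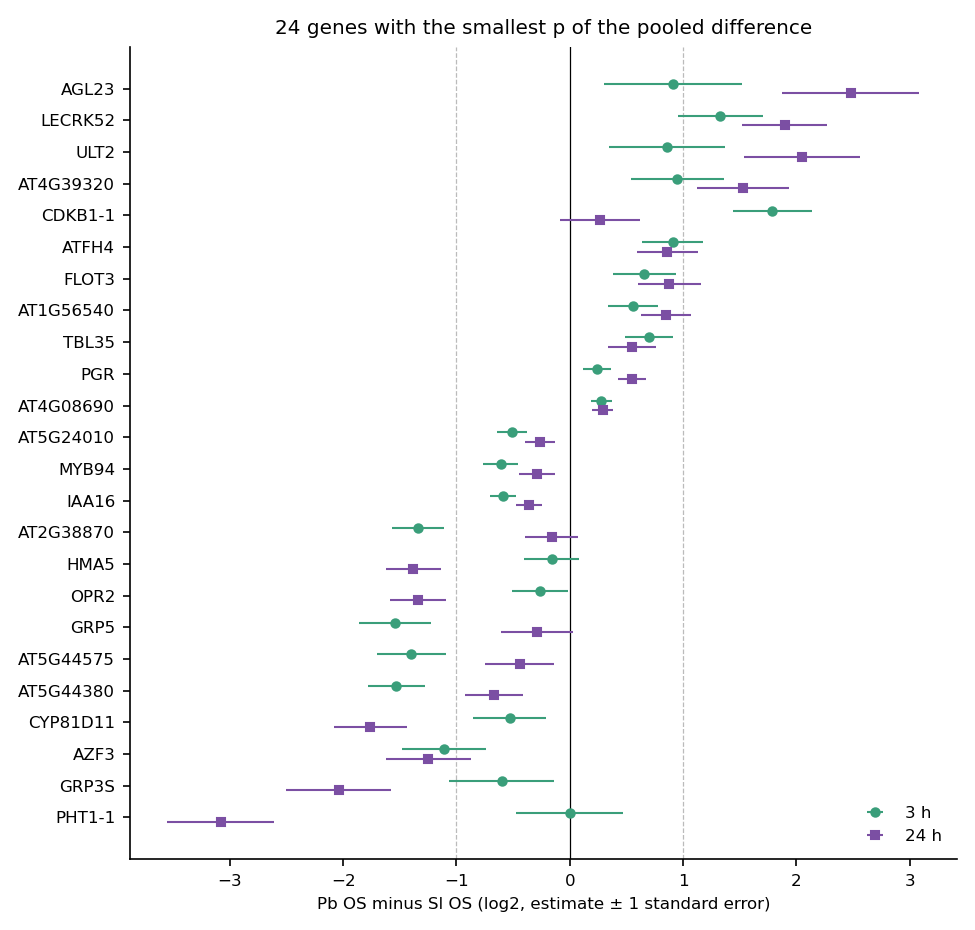
Differences Pb OS minus Sl OS at 3 h (circles) and 24 h (squares), in log2 units with 1 standard error. Shown are the 24 genes with the smallest p of the pooled difference. Dashed lines mark a difference of 1. The standard error comes from the spread pooled over all groups. It is therefore the same at both times of a gene and does not show the spread at each time. PHT1-1 and HMA5 lie near 0 at 3 h and below -1 at 24 h, and AT2G38870 lies below -1 at 3 h and near 0 at 24 h.

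The remaining members of the 24 were smaller in size or in level. Sl OS was higher for the zinc finger repressor AZF3 (-1.18 ± 0.265, SE), for AT5G44575 (-0.92 ± 0.215) and for the receptor-like kinase AT5G24010 (-0.38 ± 0.0926). Pb OS was higher for the xylan-modifying protein family member TBL35 (0.63 ± 0.149), PGR (0.40 ± 0.0895), the Sec14-like AT4G08690 (0.28 ± 0.0634) and the flotillin FLOT3 (0.77 ± 0.195). ULT2 and AGL23, a developmental regulator and a MADS-box factor, had pooled differences of 1.46 and 1.69 at means of 0.531 and 0.265 CPM.

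Gene lists of known roles were described by counts and medians, and no member of any of the 23 lists was called. The median over all genes was -0.01. Genes for the detoxification of reactive compounds had a median of -0.69 over 17 measured genes. These enzymes couple foreign or oxidised compounds to glutathione or sugars or oxidise them. Sl OS was higher in 16 of 17 (52.3% of all genes), and 6 of 17 were under the unadjusted threshold toward Sl OS, against 2.12% of all genes. The 6 were CYP81D11 and OPR2, described above, the glutathione transferases GSTU2 (-1.11 ± 0.373, SE), GSTU24 (-0.91 ± 0.379) and GSTU25 (-1.42 ± 0.519), and the glycosyltransferase UGT73B5 (-0.61 ± 0.277). The last 4 were chosen after their values were seen. GSTU2 and GSTU25 rest on few reads, with as few as 3 and 0 in an OS library. GSTU24 and GSTU25 are neighbours and alike in sequence, so their reads may be partly shared. All 17 genes were raised by OS relative to W at 3 h. Of the 1233 genes raised in this way, 69.5% were higher with Sl OS and 7.7% were under the unadjusted threshold in either direction.

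The detoxification list leaned on the replicate 2 pair at 3 h. Its median in the pairs 1 to 4 was -0.32, -2.61, 0.48 and 0.15 at 3 h and -1.05, -0.99, -0.30 and 0.15 at 24 h. Without replicate 2 of both OS at 3 h the pooled median was -0.32, above that of aliphatic glucosinolate synthesis at -0.44. GSTU2, GSTU24 and UGT73B5 were then at -0.64, -0.55 and -0.26, while CYP81D11 was at -1.0 and OPR2 at -0.59. Relative to W at 24 h, the list median was 0.50, 0.89, 0.75 and 1.43 in the Pb OS libraries and 1.74, 2.59, 1.59 and 0.98 in the Sl OS libraries, with 1 Sl OS library inside the Pb OS range. GSTU24 at 24 h gave 1.08, 1.37, 2.25 and 2.46 CPM against 5.9, 4.34, 3.11 and 2.46 CPM.

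Promoter sequence was read for this list because several such genes are known targets of TGA transcription factors, which bind TGACG. In the 250 bases before the annotated start, TGACG on either strand was found for 8 of 17 genes of the list and for 4 of the 6 named above. It was found for 19.4% of the 18833 genes of the table with a window and for 4 (16.7%) of the 24 genes with the smallest p. Of the 6, GSTU24 (with a match), GSTU2 and OPR2 (without) have 144, 231 and 250 bases of their windows in annotated exons. The windows of CYP81D11 (chr3:10790554-10790803, minus strand), GSTU25 (chr1:5871774-5872023, plus strand) and UGT73B5 (chr2:6758180-6758429, plus strand) touch no annotated exon and are shown 5′ to 3′ from the RefSeq genome TAIR10.1, with TGACG or its complement CGTCA in capitals. The nearest match began 231, 87 and 54 bases before the start. The window of CYP81D11 also holds 1 CACGTG, which occurs in 7.53% of all windows. No window of the list held GCCGCC (2.04% of all windows).
CYP81D11: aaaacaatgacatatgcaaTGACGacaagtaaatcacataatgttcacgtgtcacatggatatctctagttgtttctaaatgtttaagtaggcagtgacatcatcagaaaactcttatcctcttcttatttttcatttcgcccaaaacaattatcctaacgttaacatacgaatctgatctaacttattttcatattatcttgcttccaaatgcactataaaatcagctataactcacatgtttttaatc
GSTU25: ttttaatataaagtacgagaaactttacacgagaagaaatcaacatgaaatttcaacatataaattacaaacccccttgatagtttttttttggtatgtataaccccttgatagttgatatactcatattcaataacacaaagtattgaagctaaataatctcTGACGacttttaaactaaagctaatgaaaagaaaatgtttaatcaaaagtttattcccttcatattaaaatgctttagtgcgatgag
UGT73B5: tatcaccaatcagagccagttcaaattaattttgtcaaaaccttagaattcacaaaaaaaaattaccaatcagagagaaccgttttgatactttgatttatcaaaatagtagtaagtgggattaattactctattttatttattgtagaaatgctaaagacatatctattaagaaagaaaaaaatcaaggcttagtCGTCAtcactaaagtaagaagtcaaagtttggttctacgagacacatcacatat
A match describes the letters only.

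**Figure D3:**
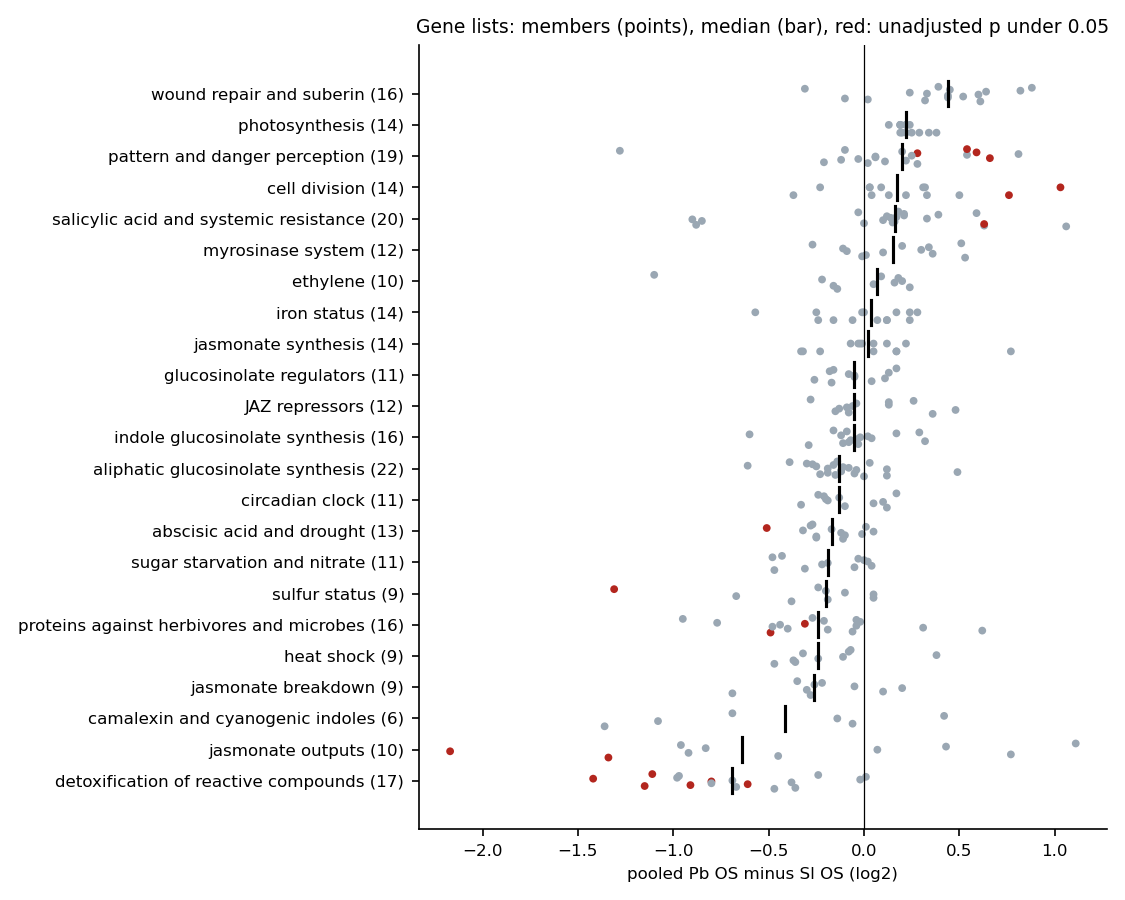
Pooled differences Pb OS minus Sl OS (log2) of the measured members of 23 gene lists, with the number measured in brackets. Points are genes, bars are list medians and red points have an unadjusted p under 0.05. The detoxification list has its median at -0.69 and wound repair and suberin at 0.44, and without the replicate 2 pair at 3 h these medians are -0.32 and 0.52.

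No jasmonate output gene was called. Of 10 measured, 6 had values toward Sl OS and 4 toward Pb OS, against 52.3% and 47.7% of all genes. ORA59 and PDF1.2B were under the unadjusted threshold toward Sl OS, against 2.12% of all genes. ORA59, a regulator of the jasmonate and ethylene branch that leads to plant defensins, measured 1.32, 1.26, 0.944 and 1.35 CPM with Pb OS and 5.03, 3.38, 1.96 and 3.53 CPM with Sl OS at 3 h. At 24 h it gave 2.33, 2.26, 3.34 and 2.37 CPM against 7.88, 9.2, 3.91 and 4.54 CPM, without overlap at either time. The pooled difference was -1.34 ± 0.554 (SE, unadjusted limma p 0.0256, adjusted p 1), and the gene was chosen after its values were seen. Its target PDF1.2B held 333, 524, 5 and 11 reads with Pb OS at 24 h and 4176, 1904, 10 and 88 reads with Sl OS. These counts differed more between batches than between both OS, and the near-identical PDF1.2 copies may share reads. In the MYC branch, the storage protein and phosphatase genes VSP1 (1.11, 95% interval -0.22 to 2.44) and VSP2 (0.77, interval -0.34 to 1.88) had values toward Pb OS. Without replicate 1 of Sl OS at 24 h they were at 0.67 and 0.41, and without the replicate 2 pair at 3 h VSP2 was at 0.44. The list median of -0.64 over 10 genes was -0.25 without the replicate 2 pair at 3 h.

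Jasmonate synthesis and its repressors had medians close to 0. The median was 0.02 over 14 synthesis genes and -0.05 over 12 JAZ repressors, with 12 of 14 and 7 of 12 intervals within 1. Synthesis genes ran from -0.33 for AOC1 (interval -1.09 to 0.43) to 0.77 for AOC3 (interval -0.01 to 1.55). AOC3 differed by 0.25 at 3 h and 1.29 at 24 h. LOX4, a lipoxygenase, differed by 0.17 (interval -0.57 to 0.91) and by 0.41 without the replicate 2 pair at 3 h. The cytochrome CYP94B3, which inactivates jasmonoyl-isoleucine, stood at -0.69 (interval -1.43 to 0.04).

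Glucosinolate genes make the compounds that both insects handle differently, and their differences between the OS were bounded. The aliphatic synthesis list had a median of -0.13 over 22 genes, 0 under the unadjusted threshold and 19 with an interval within 1. The 11 regulators had a median of -0.05, with 10 intervals within 1. MYB28, the main regulator of the aliphatic branch, differed by -0.05 (interval -0.70 to 0.61), and CYP79F1, which starts the core pathway from chain-elongated methionine, by -0.25 (interval -0.93 to 0.43). CYP79F1 measured 162, 294, 176 and 44.3 CPM with Pb OS and 290, 64.9, 209 and 194 CPM with Sl OS at 3 h, against 428 to 590 CPM in W. Both OS thus lay below W, with wide overlap. In the pairs 1 to 4 at 3 h the aliphatic list median was -0.55, 1.81, -0.07 and -1.21. It was -0.44 without the replicate 2 pair, with CYP79F1 at -0.66 and MYB28 at -0.42. The 16 indole synthesis genes had a median of -0.06.

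The perception list had a median of 0.20, with -0.01 at 3 h and 0.44 at 24 h, and no member was called. Of 19 genes for pattern and danger perception, 4 were under the unadjusted threshold toward Pb OS (2.64% of all genes), and 14 had values above 0 (47.7% of all genes). The 4 were the chitin receptor kinases CERK1 (0.28 ± 0.114, SE) and LYK5 (0.54 ± 0.255) and the wall-associated kinases WAK1 (0.66 ± 0.279) and WAK2 (0.59 ± 0.257), of which WAK1 alone was named by rule. WAK1 at 24 h measured 461, 432, 751 and 722 CPM with Pb OS and 224, 228, 369 and 415 CPM with Sl OS, and W, at 319 to 661 CPM, overlapped both. LYK5 at 24 h gave 19.2, 24.6, 20.9 and 24.5 CPM against 10.5, 13.5, 12.3 and 15.4 CPM. Neither gene overlapped at 24 h, and at 3 h both did. The replicate 2 pair at 3 h ran against this order. Without it the 4 differences were 0.37, 0.81, 0.93 and 0.79. Without replicate 4 of Sl OS at 3 h, WAK1 and WAK2 were at 0.41 and 0.38. FRK1, a kinase gene that marks pattern-triggered responses, ran the other way at -1.28 (interval -2.72 to 0.17) and was at 212 CPM in the Sl OS library of replicate 2 at 3 h, against 9.48 to 25.6 CPM in its other Sl OS libraries at that time. Without the pair it was at -0.53.

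Among 20 genes for salicylic acid and systemic resistance, 1 was under the unadjusted threshold toward Pb OS, against 2.64% of all genes. It was EDS1 (0.63 ± 0.213, SE, higher with Pb OS in 8 of 8 pairs), which was chosen after its values were seen. The EDS1 difference without the replicate 2 pair at 3 h was not computed. EDS1 is a hub of immune receptor signalling. Values were above 0 in 15 of the 20 and below 0 in 5, against 47.7% and 52.3% of all genes. The list median was 0.01 at 3 h and 0.33 at 24 h. NIMIN1, an inhibitor of NPR1 that answers to salicylic acid, gave 3.58, 3.3, 7.25 and 10.8 CPM with Pb OS and 0.99, 0.948, 2.11 and 6.03 CPM with Sl OS at 24 h. In the pairs 1 to 4 the list median was 0.85, -1.96, 0.67 and 0.95 at 3 h and 0.52, -0.01, 0.58 and 0.37 at 24 h, so 6 of 8 pairs were above 0. The pooled median of 0.16 was 0.53 without the replicate 2 pair at 3 h. The camalexin list turned in the same way, from -0.42 over 6 genes to 0.23, since its median was -6.96 in that pair. FOX1, an oxidase of cyanogenic indole synthesis, stood at 36 CPM in that Sl OS library and at 1.15 to 1.68 CPM in its other libraries of the group, and its pooled difference of -1.36 was -0.50 without the pair.

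**Figure D4:**
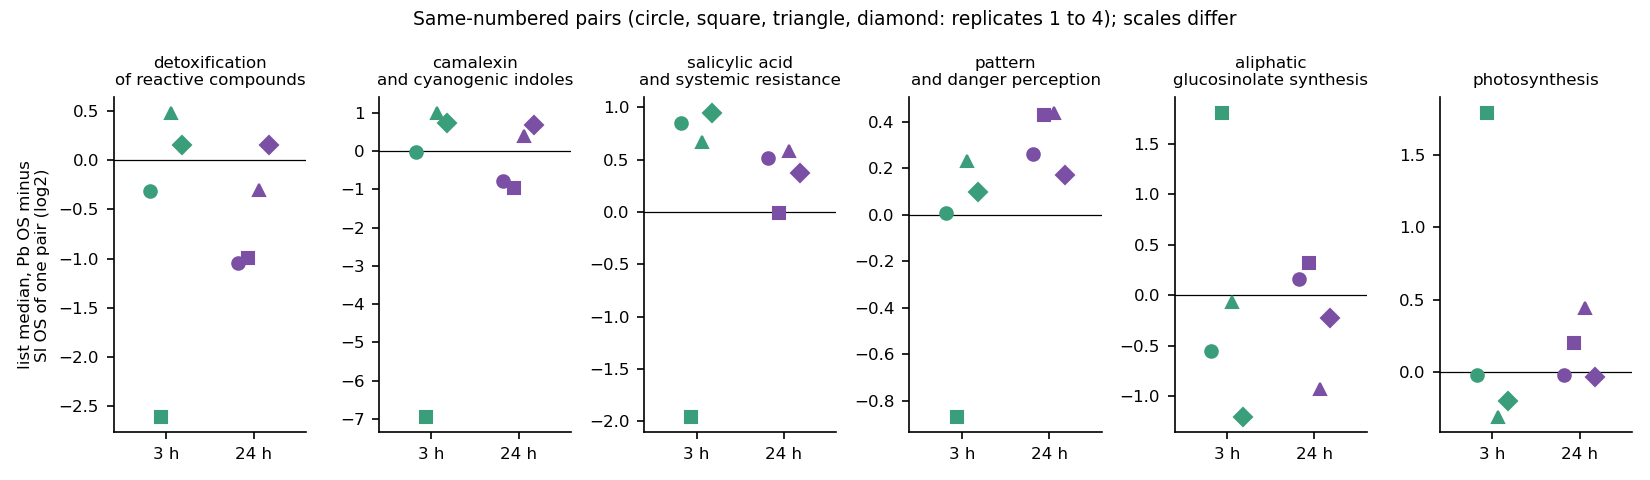
List medians of the difference Pb OS minus Sl OS (log2) in each same-numbered pair at 3 h and 24 h for 6 lists, with a scale for each list. The replicate 2 pair at 3 h lies apart in all 6, for example at -2.61 for detoxification and 1.79 for photosynthesis.

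Wound repair and suberin had a median of 0.44 over 16 genes, which was 0.20 without replicate 4 of Pb OS at 24 h. Values of 14 of the 16 lay toward Pb OS, against 47.7% of all genes, and 0 were under the unadjusted threshold. Among the 14, MYB41, ABCG6 and LTPG15 held few reads with OS. Their 24 h means were 0.135, 0.0916 and 0.157 CPM with Pb OS and 0.0618, 0.0418 and 0.0493 CPM with Sl OS. The study picked part of this list on these samples. Its 24 h picks were significantly below W with Sl OS in every case and with Pb OS in few. Neither the level relative to W nor the lean toward Pb OS is therefore independent evidence. LTPG20, a lipid transfer protein of suberin export, differed by 0.88 (interval -0.34 to 2.09). At 24 h it gave 0.636, 0.473, 0.998 and 9.99 CPM with Pb OS and 0.636, 0.767, 0.112 and 0.984 CPM with Sl OS, against 17.3 to 22 CPM in W, with 1 Pb OS library (replicate 4) far above the others, without which the pooled difference was 0.39. ERF114, a factor of tissue regeneration, differed by 0.02 (interval -0.77 to 0.80) and stood at 1.66 to 3.98 CPM with Pb OS, 3.21 to 4.42 CPM with Sl OS and 10.7 to 34.1 CPM with W at 3 h.

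In the other lists 0 to 2 members were under the unadjusted threshold. Of 16 proteins against herbivores and microbes, UPI and the Kunitz inhibitor KTI5 (-0.49 ± 0.188, SE) were under it toward Sl OS, against 2.12% of all genes. ML3, a lipid-recognition protein, stood at 0.62 (interval -0.01 to 1.25). The sulfate transporter SULTR1-2 (-1.31 ± 0.529) and CYP707A1, which breaks down abscisic acid (-0.51 ± 0.223), were under it in the sulfur and the abscisic acid list, 1 of 9 and 1 of 13 genes. These values leaned on the replicate 2 pair at 3 h. Without it KTI5 was at -0.29, ML3 at 0.32, SULTR1-2 at -0.66 and CYP707A1 at -0.27. SDI1, a regulator of sulfur use, differed by 0.04 (interval -0.46 to 0.53). Of 14 cell division genes, CDKB1-1 and CDKB2-1 (0.76 ± 0.247) were under it toward Pb OS, against 2.64% of all genes. CDKB2-2 of the same list had a value toward Sl OS (-0.37, interval -1.04 to 0.29). All 14 photosynthesis genes had values toward Pb OS, against 47.7% of all genes. All 14 were lowered by OS relative to W at 3 h. Of the 1830 genes that both OS lowered at 3 h (log2 under -1), 71.6% had values toward Pb OS. The photosynthesis median was 0.22, with 13 intervals within 1, and it was -0.03 without the replicate 2 pair at 3 h. The remaining lists had medians from -0.26 for jasmonate breakdown to 0.15 for the myrosinase system, and heat shock, at -0.24, was at 0.01 without that pair.

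The genes that answered to OS in general had medians near 0 for the difference between both OS, with a wide spread. The 1233 raised genes had a median Pb OS minus Sl OS difference of -0.22 at 3 h and -0.05 at 24 h, with 69.5% higher with Sl OS in the pooled value. The 1830 lowered genes (9.68% of all genes) had medians of 0.21 and 0.03. Of the raised genes 7.7% were under the unadjusted threshold and of the lowered genes 6.61%, against 4.76% of all genes. The interval lay within 1 in 56% and 74.6% of them, against 81.3% of all genes. Without the Pb OS library of replicate 2, but with that of Sl OS kept, the 3 h medians were -0.01 and 0.03. These 2 values are plain mean differences without the replicate block, so the batch shift does not cancel in them. These classes used the same OS libraries as the difference, and the values are a description.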

How the data were processed

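The deposited values were log2 CPM. Per the study's methods and processing notes, the authors trimmed single-end reads with Cutadapt 2.5, aligned them to TAIR10 with STAR 2.5.3a and counted genes with HTSeq 0.9.1. They kept genes reaching 1 CPM, scaled by TMM, added a prior count of 1 and removed batch effects. Whole reads were recovered for 100% of 18899 genes (tolerance 0.02 reads) with 1 shift per gene between replicates 1 and 2 and replicates 3 and 4, of 0.187 log2 units in the median. Replicate 2 of W at 3 h was the exception and carried the shift of replicates 3 and 4. Tabulated CPM carry that shift, which cancels within a pair. The deposited table of fold changes and p-values of the authors' comparisons was not used.

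limma 3.58.1 in R 4.3.3 fitted all 27 libraries with group means and the replicate number as a block, leaving 17 residual degrees of freedom. Deviations of same-numbered Pb OS and Sl OS libraries correlated at 0.371 to 0.494 at 24 h and at -0.387 to 0.448 at 3 h. Differently numbered ones correlated at -0.509 to 0.454 and at -0.667 to 0.524. The means were 0.447 against -0.15 at 24 h and 0.158 against -0.0578 at 3 h. The ranges overlapped, so at 3 h the correlations do not show that the numbers mark plant batches. Genes were named as the 24 smallest p, each list's extremes at 1 CPM or more, and 6 genes the study treats. Members and lists were chosen with earlier results of these data known. Scripts were tested on simulated data. P-values rest on 4 plant batches. They measure the spread left after group means and replicate block, pooled over all groups, W and the unwounded control included. In the block, library numbers of W at 3 h follow the labels, against which that shift goes.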

Additional observations from a re-analysis of the deposited data

Results flagged for a closer look

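In groups of 4, the highest or lowest library was compared with the rest. Of 224 groups over the genes described, 12 had a library that far from the others (gap over range above 0.829), and chance gives about 1 in 20. In log2 CPM, replicate 2 of Sl OS at 3 h was high for FOX1 (5.17, others 0.20 to 0.75), CYP707A1 (6.45, others 5.71 to 5.80) and PGR (3.62, others 3.35 to 3.37) and low for ML3 (4.03, others 6.01 to 6.24). Replicate 2 of Pb OS at 3 h was high for AT4G39320 (-0.50, others -1.96 to -1.84). Replicate 2 of Pb OS at 24 h was high for AT1G56540 (3.33, others 2.88 to 2.91) and low for AT4G08690 (3.52, others 3.87 to 3.88). Replicate 2 of Sl OS at 24 h was high for CYP81D11 (3.99, others 3.56 to 3.57). Replicate 1 was low for AT4G39320 with Sl OS at 24 h (-2.98, others -1.07 to -0.88) and high for VSP1 with Sl OS at 3 h (9.86, others 7.49 to 7.74). Replicate 3 was high for ORA59 with Pb OS at 24 h (1.74, others 1.18 to 1.24) and for CYP79F1 with Sl OS at 24 h (10.16, others 9.01 to 9.17).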

How the results depend on the processing

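The pooled count of 0 became 1 gene with no replicate block (LECRK52, adjusted p 0.0453) and 2 with 2 batches in place of 4 or at each time (LECRK52 and AT5G44380, smallest adjusted p 0.0477 and 0.0379). It stayed 0 with the block separately at each time, with only the 16 OS libraries (smallest adjusted p 0.378), with log2(CPM + 5), with genes of at least 1 CPM, with a variance trend and with voom. At 3 h the count was 5 with 2 batches at each time, 3 with the replicate block separately at each time and 3 with log2(CPM + 5), all higher with Sl OS and AT2G38870 in each. At 24 h it was 1 with no replicate block and with 2 batches (PHT1-1) and 1 with log2(CPM + 5) (UPI). Leaving out 1 library gave 0 to 2 genes pooled, 0 to 1 at 3 h, 0 to 2 at 24 h and 0 to 1 for the time difference. Pooled, these were CYP81D11 without replicate 3 of Pb OS at 3 h (adjusted p 0.0153), AT5G44380 and AT3G12170 without replicate 3 of Sl OS at 3 h, and AT5G44380 and PHT1-1 without replicate 4 of Pb OS at 24 h. At 3 h it was ENODL15 without replicate 3 of Pb OS. At 24 h it was PHT1-1 without replicate 2 of Pb OS at 24 h, PHT1-1 and OPR2 without that of 3 h, PHT1-1 without replicate 4 of Pb OS, and CYP81D11 without replicate 3 of Pb OS at 3 h. For the time difference it was PHT1-1 without replicate 4 of Pb OS at 24 h. Without replicate 2 of both OS at 3 h, added after the data were seen, the counts were 0 pooled, 2 at 3 h (both higher with Pb OS), 1 at 24 h and 1 for the time difference. The number of genes with an interval within 1 was 15534 with no replicate block, 15096 in 16 libraries and 18502 with log2(CPM + 5). ERF114 turned to -0.01 with log2(CPM + 5) and SDI1 to -0.05 without the replicate 2 pair. Leaving out 1 library moved ERF114 between -0.18 and 0.14, SDI1 between -0.17 and 0.16, MYB28 between -0.35 and 0.15, CYP79F1 between -0.51 and 0.02 and LOX4 between -0.04 and 0.44. Numbering W at 3 h as 1, 3 and 4, also added later, called 0 genes in all 4 comparisons. Over the alternatives LECRK52 was called in 3 (adjusted p 0.0379 to 0.389 over all), AT5G44380 in 4 and IAA16 in 0 (0.0529 to 0.563). Low genes have smaller differences with log2(CPM + 5) by construction, such as 0.15 for LECRK52 and -0.41 for AT5G44380. The other causes were not tested. Levels near 1 read limit LECRK52, PHT1-1, CDKB1-1 and AGL23. Few reads also limit ULT2, AT4G39320, GSTU2, GSTU25, MYB41, ABCG6 and LTPG15. Over the alternatives GSTU2 came as near to 0 as -0.17 and GSTU25 as -0.16.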
